A study of Mus musculus with 8 samples.

Results

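Cytosolic ribosomal protein mRNAs were followed in direct RNA sequencing of whole testes after germ cells had been depleted with busulfan. The members were chosen by name: every transcript model (contig) whose gene symbol starts with Rpl or Rps and a digit, or is Rpsa, Rplp0, Rplp1 or Rplp2, without S6 kinases (Rps6k) and names with -ps, which mark pseudogenes. This rule found 140 contigs of 83 genes, 50 with Rpl and 33 with Rps symbols, among 2783 contigs of 2243 genes. They held 60522 of 621202 reads. The study compared 4 groups of adult male mice on a C57BL/6 background with 2 mice each: Tent5c wt/wt or Tent5c dcat/dcat mice, each given 1 intraperitoneal injection of busulfan at 20 mg/kg or of its vehicle and sampled 4 weeks later. TENT5C, the product of Tent5c, lengthens poly(A) tails in the cytoplasm, and the dcat allele, here carried in both copies, encodes a protein without this catalytic activity. Busulfan is an alkylating drug that depletes dividing germ cells, so that somatic cells and surviving germ cells make up more of the tissue. Groups are named by genotype and injection, such as wt vehicle and dcat busulfan.

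Ribosomal proteins coat the ribosomal RNA of the small and the large subunit, and growing cells make them in matched amounts. Their mRNAs are short and abundant, and most begin with a terminal oligopyrimidine (TOP) tract that ties their translation to growth signals. In male germ cells the X chromosome is transcriptionally silenced during meiosis, and germ cells transcribe autosomal copies of some X-linked ribosomal protein genes, among them Rpl10l and Rpl39l. In spermatids many mRNAs wait in storage with long poly(A) tails, which shorten when they are translated.

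The 8 libraries held 29574 to 129074 reads, with dcat vehicle replicate 1 the shallowest, and 3 reads were worth 23.2 to 101 CPM, the count scaled to a fixed library total. Each read is 1 RNA molecule, so CPM can be compared between genes without dividing by length. Marker sums are in CPM of the library total, and the CPM of single contigs further on are scaled by edgeR's TMM factors as well. Summed CPM of 14 late spermatid markers, such as the protamines Prm1 and Prm2, lay at 96740 to 121808 without busulfan, at 9190 and 12753 in wt busulfan, and at 22104 and 40052 in dcat busulfan. The 8 Leydig cell markers read lay at 3665 to 6594 without busulfan, at 41013 and 45952 in wt busulfan, and at 25438 and 21293 in dcat busulfan. The 8 Sertoli cell markers read lay at 2929 to 5376 without busulfan, at 32792 and 31640 in wt busulfan, and at 29602 and 20734 in dcat busulfan. The late spermatid sums of dcat busulfan thus lay above those of wt busulfan, and the Leydig and Sertoli sums below them. The Leydig markers include Insl3, whose transcripts the paper reports as lower in dcat than in wt testes after busulfan. How much Insl3 adds to the lower Leydig sum was not tested. Tent5c itself had 18 to 115 reads in every library, which says nothing of an allele that changes the protein. In whole testes fewer cells of a type and less RNA per cell cannot be told apart, and this holds for every result of busulfan given here. The part of cell composition in these results was not tested.

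Which contig a read belongs to rests on sequence, so stretches that separate members are shown for the pairs and isoforms the results turn on. The X-linked Rpl10 (chrX:74270812-74273135, plus strand) and the intronless Rpl10l (chr12:66283379-66284401, minus strand) have coding sequences of 645 bases, stop codon included, that are 84.8% identical. Rpl39 (chrX:37082520-37085402, minus strand) and Rpl39l (chr16:10170228-10174911, plus strand) share 85.3% of 156 coding bases. Rpl36a (chrX:134585654-134588056, plus strand) and Rpl36al (chr12:69182741-69184083, minus strand) share 87.9% of 321. The 30-base coding window with the most differences is printed for each pair from the GENCODE vM21 transcripts (GRCm38), with the differing bases in capitals; it starts at coding base 118 in Rpl10, 115 in Rpl39 and 151 in Rpl36a.
Rpl10: aaAgcAaaAgtTgatgaAttCccactTtgT
Rpl10l: aaGgcGaaGgtGgatgaGttTccactCtgC
Rpl39: tcTaagAgAagacaCtggagGAgaacGaaG
Rpl39l: tcCaagCgGagacaTtggagACgaacCaaA
Rpl36a: cagacTaagccTatTttCcgCaaAaaggcT
Rpl36al: cagacAaagccAatCttTcgAaaGaaggcC
By contrast, Rps27 and the intronless Rps27rt have the same 255 coding bases, so how their reads divide is uncertain.

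Rps24, a small subunit protein, was read on 4 contigs that are told apart in part by 2 small exons near the end of the coding sequence. They also differ outside these exons: the 5-exon contig is 1613 nt long, and the others are 519, 525 and 714 nt. A shift of reads between contigs is therefore not a measure of these exons alone. Both exons are printed from the GRCm38 genome, with capitals for the stop codon of the contigs whose coding sequence ends there.
Rps24 exon of 18 bases, chr14:24494052-24494069, plus strand: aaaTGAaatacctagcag
Rps24 exon of 20 bases, chr14:24495430-24495449, plus strand: TGAgtggagattggatacag
The 7-exon contig (ENSMUST00000223999) holds both exons and encodes 131 residues. A 6-exon contig (ENSMUST00000169826) lacks the 18-base exon and encodes 130, and the 5-exon contig (ENSMUST00000225023) lacks both and encodes 133. In the 7-exon contig the stop lies in the 18-base exon, and in the 6-exon contig it lies in the 20-base exon. The remaining contig (ENSMUST00000224568) lacks the 18-base exon too and encodes 118 residues.

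Ribosomal protein mRNAs took a larger share of the reads after busulfan. In wt vehicle they made up 7.26% and 7.60% of all reads, and in wt busulfan 11.9% and 11.3%. In dcat the shares were 8.58% and 7.41% without and 11.2% and 11.9% with busulfan. The busulfan libraries lay above all vehicle libraries in both genotypes, and the genotypes overlapped under either treatment. With 2 libraries a group, an exact permutation test of these shares cannot pass, so they are given as values. Mitochondrial reads were 4.38% to 6.08% of a library without and 13.97% to 16.2% with busulfan. Of the reads that are not mitochondrial, the members made up 7.63% to 9.13% without and 13.2% to 14.1% with busulfan.

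**Figure D1:**
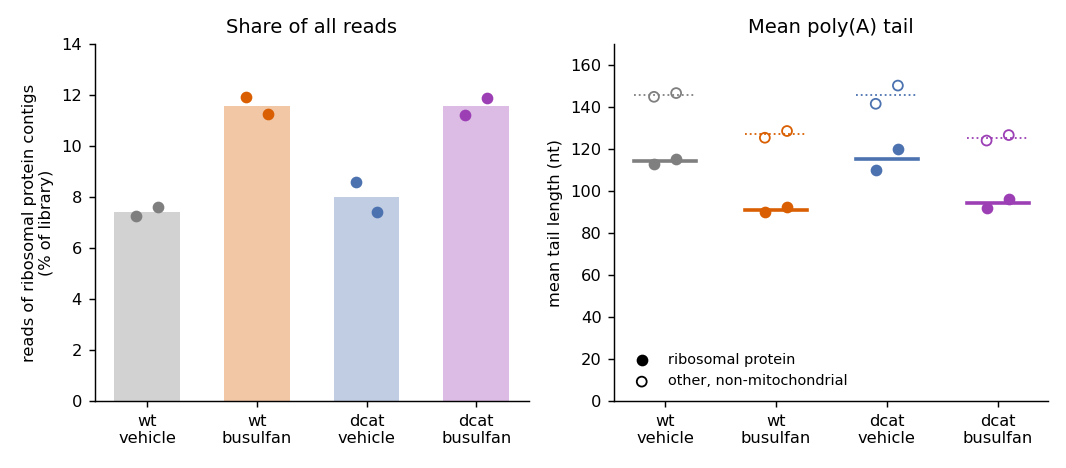
The left panel plots reads of ribosomal protein contigs as a percentage of each library, with points for the 2 mice of a group and a bar for their mean. The right panel plots the mean poly(A) tail in nt of reads of ribosomal protein contigs (filled points, solid line for the mean) and of other non-mitochondrial contigs (open points, dotted line). The 4 busulfan libraries lie between 11.2% and 11.9% and between 89.9 and 96.5 nt, apart from all vehicle libraries.

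In wt testes, 55 of the 140 member contigs rose after busulfan and 5 fell (edgeR quasi-likelihood test, adjusted p under 0.05 over all 2783 contigs). Of all contigs 73.8% passed, 35.4% upwards and 38.3% downwards, against 39.3% and 3.57% of the members. The median log2 fold change was 0.79 over the members and 0.09 over all contigs. In dcat testes 52 members rose and 4 fell, or 37.1% and 2.86%, where 31.3% of all contigs rose and 31.4% fell, and the medians were 0.69 and 0.14. The share of members that rose was thus close to that of all contigs, while few fell. Among the 140 members, 91 had at least 10 reads in both wt vehicle libraries and 132 in both wt busulfan libraries. In dcat these were 87 and 127. Every deposited contig has that many reads in both replicates of some group, and some members had them only with busulfan. Members without a rise could thus be missing. The same 44 contigs passed the test in both genotypes, and in the same direction. DESeq2 called 35 members in wt and 15 in dcat. In wt, the calls were 34 without wt busulfan replicate 2, and in dcat 30 without dcat vehicle replicate 2.

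The subunits had similar medians. Of 55 small subunit contigs, 23 rose and 1 fell in wt, with a median log2 fold change of 0.79. In dcat 22 rose and 2 fell, with a median of 0.68. Of 79 large subunit contigs, 31 rose and 1 fell in wt (median 0.81), and 29 rose and 0 fell in dcat (median 0.73). Small subunit contigs made up 39.1% to 42.5% of all member reads in the 8 libraries. The 6 remaining contigs, paralogs caught by the name rule, are described further on.

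The acidic stalk, which recruits elongation factors to the ribosome, is formed by Rplp0, Rplp1 and Rplp2. Rplp1, the contig with the most member reads (1694), had 1821 and 1458 CPM in wt vehicle and 3062 and 3945 in wt busulfan. It had 2489 and 1646 CPM without and 3661 and 3651 with busulfan in dcat. All Rplp1 values with busulfan lay above those without. The log2 fold change was 1.10 in wt (SE 0.32, edgeR adjusted p = 0.00368) and 0.85 in dcat (SE 0.32, adjusted p = 0.0245). Rplp2 rose from 736 and 701 to 1361 and 1676 CPM in wt and from 830 and 791 to 1509 and 1945 in dcat, with log2 fold changes of 1.08 and 1.10 (edgeR adjusted p = 0.00608 and 0.00767). Rplp0, to which both bind, had 1976 and 1773 CPM in wt vehicle and 2107 and 2815 in wt busulfan and did not pass the test (log2 fold change 0.40, edgeR adjusted p = 0.256), nor did it in dcat (0.50, adjusted p = 0.175).

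Among other core proteins of the small subunit, Rps6, the target of S6 kinase, had 717 and 615 CPM in wt vehicle and 1047 and 1365 in wt busulfan (log2 fold change 0.87, edgeR adjusted p = 0.0305). Rps19, which is mutated in Diamond-Blackfan anaemia, had 445 and 443 CPM against 1086 and 1422 (1.498, adjusted p = 0.00143). Rpsa, the laminin receptor precursor, had 213 and 300 against 628 and 621 CPM (1.26, adjusted p = 0.0115). Their groups did not overlap in wt. Rps2, Rps12 and Rps27a, the last made as a fusion to ubiquitin, also rose in wt, with log2 fold changes of 1.38, 0.89 and 1.21. Rps14, from 1046 and 1115 to 1256 and 1572 CPM in wt, did not pass (edgeR adjusted p = 0.326).

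In the large subunit, Rpl4 had 484 and 543 CPM in wt vehicle and 1256 and 1130 in wt busulfan (log2 fold change 1.21, edgeR adjusted p = 0.00368). Rpl3, which lies next to the peptidyl transferase centre, had 96.8 and 243 against 497 and 668 CPM (1.72, adjusted p = 0.00159). In dcat, Rpl4 and Rpl3 rose by 1.11 and 1.39 on the log2 scale (edgeR adjusted p = 0.00964 and 0.00896). Rpl13a, known also from translational silencing in inflammation, rose by 0.89 in wt and 1.19 in dcat (adjusted p = 0.0441 and 0.0129).

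Not every abundant member moved with these. Rpl41, one of the smallest proteins of the ribosome, had 1937 and 2645 CPM on its main contig in wt vehicle and 2172 and 2919 in wt busulfan (log2 fold change 0.15, edgeR adjusted p = 0.674). Its shorter contig (ENSMUST00000176683) fell, from 562 and 786 to 327 and 367 CPM in wt (-0.96, adjusted p = 0.0321), while in dcat it had 697 and 567 against 321 and 543 CPM (adjusted p = 0.291). Rps20, of the small subunit head, had 2150 and 2674 CPM in wt vehicle and 1479 and 1713 in wt busulfan, without passing the test (-0.60, edgeR adjusted p = 0.0829). Its dcat values were 2821 and 2628 CPM without and 1991 and 2076 with busulfan (-0.42, adjusted p = 0.238). Rps29 went from 1646 and 2016 to 2617 and 2966 CPM in wt and did not pass either (0.61, adjusted p = 0.086).

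Some of these calls rested on 1 library. Without wt busulfan replicate 2, the wt calls of Rplp2, Rps6, Rps12, Rps27a, Rps27l, Rpl13a and Rpl22 were lost, with log2 fold changes of 0.63 in Rpl13a to 1.24 in Rpl22. Without dcat vehicle replicate 2, the dcat calls of Rplp1, Rpsa, Rps2, Rps19, Rps27a, Rpl3 and Rpl13a were lost, with 0.61 in Rpsa to 1.47 in Rpl3. Rpl13a in wt also did not pass without wt vehicle replicate 1 (0.95), and in dcat it, Rplp1 and Rplp2 did not without dcat busulfan replicate 2 (0.77, 0.86 and 0.90). Rplp1 did not pass without dcat busulfan replicate 1 either (0.86). The fall of the shorter Rpl41 contig lost its call without any 1 of the wt libraries or the dcat vehicle libraries, and it was -0.41 without wt vehicle replicate 2.

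**Figure D2:**
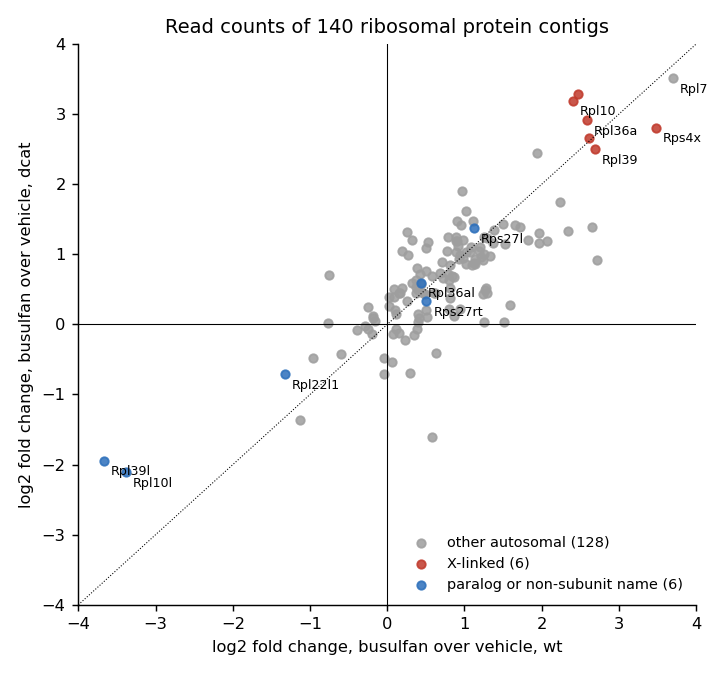
Log2 fold changes of the read counts of the 140 member contigs, busulfan over vehicle, in wt (horizontal axis) and dcat (vertical axis); each point is 1 contig, and the dotted line marks equal change. Red marks the 6 X-linked contigs, which lie between 2.40 and 3.48 in wt, and blue the 6 paralogs, of which Rpl39l and Rpl10l lie below -3 in wt.

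The members that rose most included every member on the X chromosome: 6 contigs of 4 genes, a grouping made after their values were seen. Every deposited contig has at least 10 reads in both replicates of some group, and none of these 6 reached that under vehicle. They entered through the busulfan groups, so an X-linked member without such a rise could be missing. Within this limit all 6 rose in both genotypes, by 2.40 to 3.48 on the log2 scale in wt and 2.50 to 3.29 in dcat. Their medians were 2.60 and 2.86. The 134 autosomal members had medians of 0.71 and 0.65. Some autosomal members rose as much in wt. The 3 Rpl14 contigs, named after their values were seen, rose by 2.07 to 2.71. An Rpl3 contig (ENSMUST00000187578) rose by 2.65. In dcat the Rpl14 contigs rose by 0.92 to 1.75, with 1 called, and no Rpl3 contig rose by more than 1.39. A contig of Rpl7 near the floor, which met the same filter only through wt busulfan, rose by 3.70 in wt and 3.51 in dcat. Of the other 91 X-linked contigs, 63 rose and 21 fell in wt (median 2.50), and 62 rose and 17 fell in dcat (median 2.12). Without dcat vehicle replicate 2 the second Rpl10 contig (ENSMUST00000074085) did not pass in dcat (1.19, edgeR adjusted p = 0.22). The X-linked members made up 0.543% to 0.828% of member reads without busulfan and 2.53% to 3.31% with it.

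Rps4x, the X-linked form of a small subunit protein, had 116 and 100 CPM in wt vehicle and 1230 and 1196 in wt busulfan. In dcat it had 133 and 144 CPM without and 1204 and 793 with busulfan. The groups were far apart in both genotypes, with log2 fold changes of 3.48 (SE 0.46, edgeR adjusted p = 1e-06) and 2.80 (SE 0.44, adjusted p = 5.65e-05). Rpl39, which lines the exit tunnel for the growing chain, went from 116 and 143 to 785 and 913 CPM in wt and from 166 and 144 to 723 and 978 in dcat (log2 fold change 2.68 and 2.50, edgeR adjusted p = 1.38e-05 and 0.000127). Rpl10, a late-joining large subunit protein, had 116 and 85.8 CPM on its main contig in wt vehicle against 497 and 565 in wt busulfan, and 66.4 and 47.9 against 466 and 511 in dcat (2.40 and 3.19, adjusted p = 0.000131 and 0.000107). Rpl36a, whose relative Rpl36al is autosomal, had 38.7 and 100 against 380 and 508 CPM in wt, and 99.6 and 47.9 against 594 and 348 in dcat (2.59 and 2.91, adjusted p = 0.000288 and 0.000374). The vehicle values of these Rpl10 and Rpl36a contigs rest on 2 to 7 reads a library. Those of Rpl39 rest on 6 and 10 reads in wt and 5 and 18 in dcat. All 6 X-linked contigs together, Rps4x among them, had 22 and 39 reads in wt vehicle and 21 and 52 in dcat vehicle.

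The autosomal copies Rpl39l and Rpl10l moved the other way. Rpl39l had 1395 and 1601 CPM in wt vehicle and 39.3 and 179 in wt busulfan, the lowest value being 3 reads. In dcat it had 830 and 1590 CPM without and 161 and 467 with busulfan. It fell by 3.67 on the log2 scale in wt (SE 0.52, edgeR adjusted p = 2.54e-06) and by 1.95 in dcat (SE 0.47, adjusted p = 0.00141), the latter by 1.26 without dcat vehicle replicate 2 (adjusted p = 0.0655). Rpl10l had 697 and 601 CPM in wt vehicle and 65.4 and 56.5 in wt busulfan, and 996 and 815 against 80.3 and 304 in dcat. It fell by 3.39 in wt (adjusted p = 9.1e-06) and by 2.11 in dcat (adjusted p = 0.000628). These were the deepest falls among the members in both genotypes. Rpl10l met the read filter of the deposited counts only through the vehicle groups, and its relative Rpl10 only through the busulfan groups. A pair without such opposite changes could thus be missing.

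Set against its X-linked relative, each copy gave way in the pooled reads of the pair. Rpl39l made up 92.3% and 91.8% of Rpl39 and Rpl39l reads in wt vehicle and 4.76% and 16.4% in wt busulfan (Wilson 95% intervals from 84.2% to 96.4% and from 1.63% to 24.2%, counting error only). In dcat its share was 83.3% and 91.7% without and 18.2% and 32.3% with busulfan. The share of Rpl10l was 81.8% and 80.8% in wt vehicle against 7.69% and 6.32% in wt busulfan, and 83.3% and 94.4% against 9.80% and 27.2% in dcat. Rpl36al held 89.5% and 67.6% of Rpl36a and Rpl36al reads in wt vehicle and 39.4% and 40.1% in wt busulfan. In dcat it held 50% and 82.8% without and 33.3% and 45.4% with busulfan, the vehicle shares of this pair resting on 12 to 58 reads. In dcat busulfan, replicate 2 had both the larger share of each copy and the larger sum of late spermatid markers. Whether the marker sum bears on these shares was not tested.

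The other paralogs differed among themselves. Rpl22l1, a copy of the autosomal Rpl22, had 484 and 472 CPM in wt vehicle and 236 and 151 in wt busulfan and fell by 1.33 on the log2 scale (edgeR adjusted p = 0.0107), and it did not pass in dcat (-0.71, adjusted p = 0.175). Its call in wt was lost without wt vehicle replicate 1, wt vehicle replicate 2 or wt busulfan replicate 2 (-1.08, -1.06 and -1.01). Rpl22 itself rose in wt, from 136 and 129 to 314 and 348 CPM (1.32, adjusted p = 0.0236). Rpl36al, at 329 and 357 CPM in wt vehicle and 366 and 555 in wt busulfan, did not pass in wt (0.43, adjusted p = 0.349) or in dcat (0.59, adjusted p = 0.217). Rps27l, a relative of Rps27 known as a p53 target, rose in wt from 310 and 386 to 707 and 819 CPM (1.12, adjusted p = 0.0113) and in dcat from 365 and 312 to 947 and 772 (1.37, adjusted p = 0.00478). Rps27rt, named after its values were seen, did not pass in either genotype (0.50 and 0.33, adjusted p = 0.167 and 0.386).

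**Figure D3:**
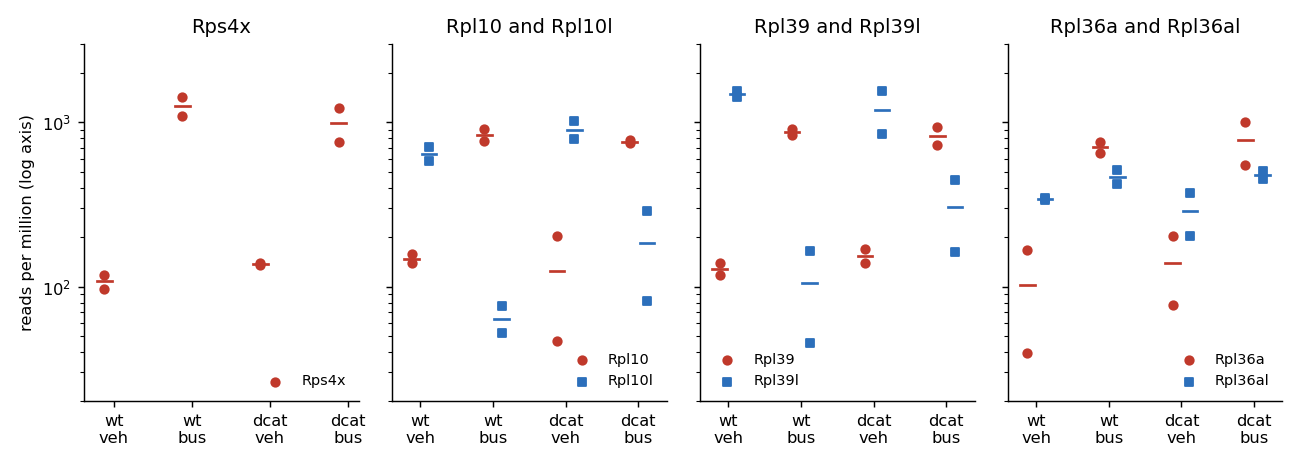
Reads in CPM of each library's total (log axis), summed over the contigs of a gene, for the X-linked genes Rps4x, Rpl10, Rpl39 and Rpl36a (red circles) and the autosomal copies Rpl10l, Rpl39l and Rpl36al (blue squares) in the 4 groups; points are the 2 mice, lines their mean. Busulfan exchanged the order of Rpl10 with Rpl10l and of Rpl39 with Rpl39l in both genotypes. Rpl36al lay above Rpl36a in both wt vehicle libraries and below it in every busulfan library. In dcat vehicle the 2 were level in replicate 1, and Rpl36al lay above Rpl36a in replicate 2.

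Many genes were read on more than 1 contig. Of 44 genes with several contigs, 1 had contigs called in opposite directions in wt, Rps24, and 1 in dcat, Rps26. The median spread of log2 fold changes between contigs of a gene was 0.41 in wt and 0.64 in dcat. The main contig of Rps26, named after its values were seen, and its retained-intron contig (ENSMUST00000219591) moved by 1.04 and -1.37 in dcat (edgeR adjusted p = 0.0197 and 0.041). The call of the latter, and with it the opposite directions, was lost without dcat busulfan replicate 2 (-0.98), dcat vehicle replicate 1 (-1.17), dcat vehicle replicate 2 (-1.66) or either wt busulfan library (-1.37). Among 12 retained-intron contigs in all, 4 rose and 0 fell in wt, and 3 rose and 1 fell in dcat. One of them, of Rpl7 (ENSMUST00000141217), the least read member, had 0 and 1 reads in wt vehicle and 10 and 13 in wt busulfan, a ratio of 15.6 per library total with a counting interval from 2.53 to 642. In dcat it had 0 and 1 reads without and 4 and 10 with busulfan (ratio 14.04, from 2.14 to 594). This Rpl7 contig met the read filter of the deposited counts only through wt busulfan. A contig of Rps15a (ENSMUST00000172457) fell in dcat, from 498 and 87.9 to 48.2 and 76.1 CPM (-1.61, edgeR adjusted p = 0.0494), and was at -0.43 without dcat vehicle replicate 1 (adjusted p = 0.587). Its call was also lost without dcat busulfan replicate 1 (-1.36), dcat busulfan replicate 2 (-2.002), or any 1 of the wt libraries (-1.63 to -1.60).

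Contigs of Rps24 were called in both directions in wt. The 6-exon contig of 130 residues had 1104 and 1501 CPM in wt vehicle and 615 and 904 in wt busulfan, and fell by 0.77 on the log2 scale (SE 0.35, edgeR adjusted p = 0.05). This call lay at the threshold and was lost without either wt vehicle library, without wt busulfan replicate 1 or without either dcat vehicle library, with -0.26 in the absence of wt vehicle replicate 2. The 7-exon contig, which holds the 18-base exon printed above, had 19.4 and 71.5 against 275 and 235 CPM and rose by 2.33 (SE 0.61, adjusted p = 0.00152), from 1 and 5 reads to 21 and 25. The 7-exon contig met the read filter of the deposited counts only through wt busulfan, so a contig without such a rise could be missing. The 5-exon contig, without either exon, had 368 and 458 against 694 and 678 CPM and did not pass (0.72, adjusted p = 0.0864). Of all Rps24 reads, the 6-exon contig held 71.3% and 70.9% in wt vehicle and 35.9% and 47.1% in wt busulfan. The 5-exon contig held 23.8% and 21.6% against 40.5% and 35.3%, and the 7-exon contig 1.25% and 3.38% against 16.0% and 12.3%. In dcat the 6-exon contig held 73.1% and 65.1% without and 52.1% and 62.9% with busulfan, and none of the 4 contigs passed there. Rps24 was singled out after its values were seen, and how well these reads resolve an exon of 18 bases was not tested.

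The genotype made no member pass in counts. Between dcat and wt after busulfan, 0 of 140 members passed (4 at an unadjusted p under 0.05 by edgeR, and 0 with DESeq2, 2 unadjusted), where 5.82% of all contigs did (5.39% higher in dcat). The members' median log2 difference was 0.06, with a median SE of 0.37, so a change of that size could not be detected in a single contig. Rpl10l had the largest difference, 1.73 higher in dcat (SE 0.60, edgeR adjusted p = 0.0826), followed at 1.48 by Rpl39l (adjusted p = 0.12); leaving out dcat busulfan replicate 1 made both pass, at 2.30 and 1.98 (adjusted p = 0.00392 and 0.00522). Between dcat and wt under vehicle 0 members passed (2 unadjusted by edgeR, and 0 with DESeq2 adjusted or unadjusted), with 0% of all contigs called. In the interaction of genotype and busulfan 0 members passed (4 unadjusted by edgeR, 2 by DESeq2), against 0.323% of all contigs. Rpl39l had an interaction of 1.72 (edgeR adjusted p = 0.2), which passed without dcat busulfan replicate 1 (2.22, adjusted p = 0.0132) or without dcat vehicle replicate 2 (2.18, adjusted p = 0.0462). The contig of Rps15a had the largest, -2.18 (adjusted p = 0.255), and passed without dcat vehicle replicate 2 (-3.66, adjusted p = 0.0105).

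Poly(A) tails of the members were short for this tissue. The mean over member reads was 113 and 116 nt in wt vehicle, where other non-mitochondrial reads had 145 and 147 nt. In wt busulfan it was 89.9 and 92.5 nt, against 125 and 129 nt for the others. In dcat the members had 110 and 120 nt without and 91.9 and 96.5 nt with busulfan. Among contigs with at least 10 reads, 97.7% to 100% of the members lay below the median of the other non-mitochondrial contigs, in every library. The members are shorter transcripts, with a median of 761 nt against 1810 nt for other contigs, but other contigs no longer than the members' 90th percentile still had median tails of 145 nt in both wt vehicle libraries, where the members had 113 and 116 nt.

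The profile of member reads had its mode in the bins centred on 55 or 65 nt in all 8 libraries. In vehicle testes a shoulder of longer tails followed: reads of 120 to 210 nt were 39.6% and 41.2% in wt vehicle and 37.6% and 43.7% in dcat vehicle. After busulfan they were 22.9% and 24.0% in wt and 24.1% and 27.0% in dcat, while reads of 30 to 120 nt were 49.2% to 56.6% without and 65.5% to 69.1% with busulfan. Other non-mitochondrial reads had their mode at 165 or 175 nt without busulfan and at 65 or 75 nt with it.

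**Figure D4:**
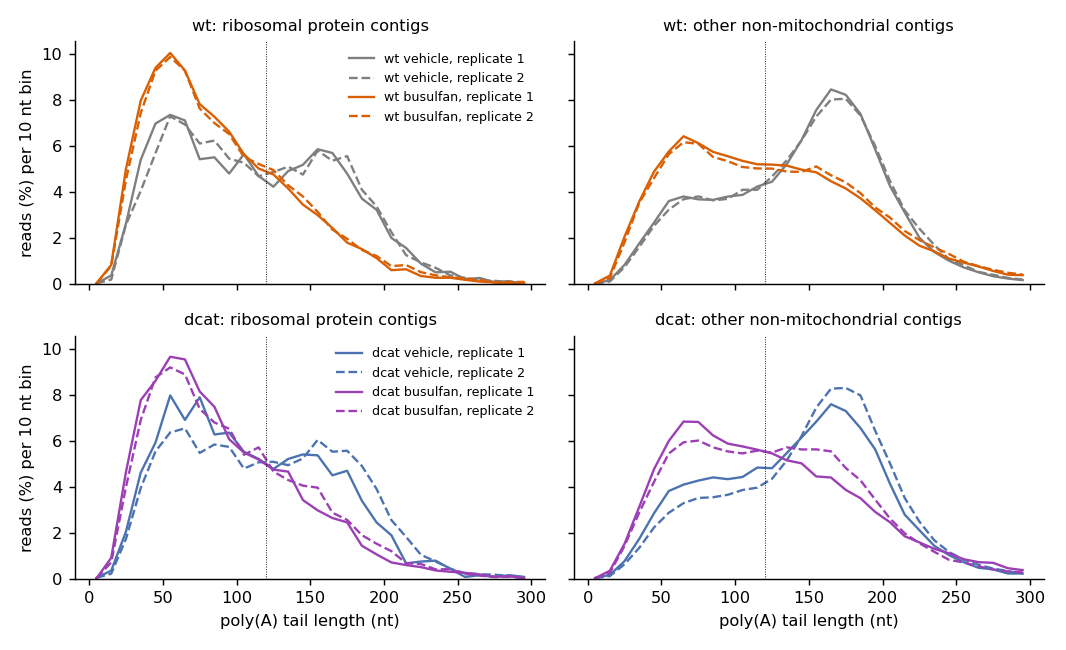
Share of reads per 10 nt bin of poly(A) tail length for ribosomal protein contigs (left) and other non-mitochondrial contigs (right) in wt (top) and dcat (bottom); each line is 1 mouse, and the dotted line marks 120 nt. Member reads peak near 55 nt in all groups, and their shoulder above 120 nt is lower in all 4 busulfan libraries.

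Tested contig by contig, 50 of 89 members with at least 10 reads in each wt library had shorter mean tails after busulfan and 0 longer ones (limma, adjusted p under 0.05 over 527 contigs), or 56.2% shorter against 39.5% of all contigs tested (0.759% longer, 40.2% in either direction). The median difference was -21.7 nt over the members and -19.9 nt over all contigs tested. In dcat, 17 of 82 were shorter and 0 longer, 20.7% against 21.8% of all 441 contigs tested, with medians of -19.6 and -17.2 nt; with the sequencing run as a block, 32 were shorter. Most contigs tested shared these shifts: 451 of 527 in wt and 381 of 441 in dcat had a difference below 0. Once each library was centred on its median, 2 members were shorter and 1 longer in wt, and 0 were called in dcat. Mitochondrial reads did not share the shift in wt, with mean tails of 65.7 and 66.7 nt without and 66.3 and 67.1 nt with busulfan. In dcat their means were 67.7 and 69.0 nt without and 64.4 and 65.6 nt with busulfan. Without wt busulfan replicate 1 the count in wt was 32, and without dcat busulfan replicate 1 that in dcat was 5. None of the X-linked members had enough vehicle reads to enter; over all their reads the mean tail was 102 to 109 nt in the vehicle libraries and 88.2 to 98.7 nt in the busulfan libraries.

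The largest differences were found in members whose reads were not called higher. Rps20 had mean tails of 136 and 142 nt in wt vehicle and 92.7 and 91.6 nt in wt busulfan, and 141 and 140 against 93.2 and 106 nt in dcat. The groups were far apart, with differences of -46.5 nt (SE 4.8, limma adjusted p = 2.72e-06) and -40.5 nt (SE 6.03, adjusted p = 0.00156). Rpl26, which binds p53 mRNA, had 130 and 116 against 72.7 and 82.7 nt in wt, and 134 and 131 against 84.7 and 90.3 nt in dcat (-45.3 and -44.7 nt, adjusted p = 7.59e-05 and 0.00276). Its second contig (ENSMUST00000167436) had 151 and 155 against 93.8 and 97.4 nt in wt (-57.4 nt, adjusted p = 0.00347), the largest difference of any member. The shorter Rpl41 contig went from 116 and 132 to 87.2 and 75.6 nt in wt (-43.1 nt, adjusted p = 0.00272). Rps7, an inhibitor of Mdm2, shortened by 47.4 nt on its contig ENSMUST00000221871 in wt (adjusted p = 0.0084) and by 45.6 nt on its main contig in dcat (adjusted p = 0.0162). The 5-exon contig of Rps24 had 137 and 136 nt without and 73.5 and 96.9 nt with busulfan in dcat (-51.6 nt, adjusted p = 0.0162), the largest difference of a member in dcat. Several of these calls were lost without 1 library: the second Rpl26 contig without wt busulfan replicate 1 (-55.6 nt), Rps7 without wt vehicle replicate 2 in wt (-41.8 nt) and without dcat vehicle replicate 1 in dcat (-32.9 nt), and Rps24 without dcat busulfan replicate 1 (-40.0 nt).

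Tail differences were also set beside the count calls. In wt the 35 tested members that rose in counts had a median difference of -17.9 nt, with 15 called shorter, against -19.9 nt over all contigs tested. The 51 whose counts were not called had -22.8 nt, with 32 called, and the 3 that fell had -36.9 nt, with all 3 called. In dcat 3 of the 31 members that rose were called shorter (median -19.0 nt) and 14 of the 50 not called in counts (median -20.2 nt). Across the 89 members, which share libraries and depth, the tail difference and the log2 fold change of the reads had a Pearson correlation of 0.40 in wt, and 0.41 over the 438 other contigs. In dcat it was 0.09 over 82 members and 0.21 over 359 others. These correlations are descriptions, and the contigs are not independent.

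**Figure D5:**
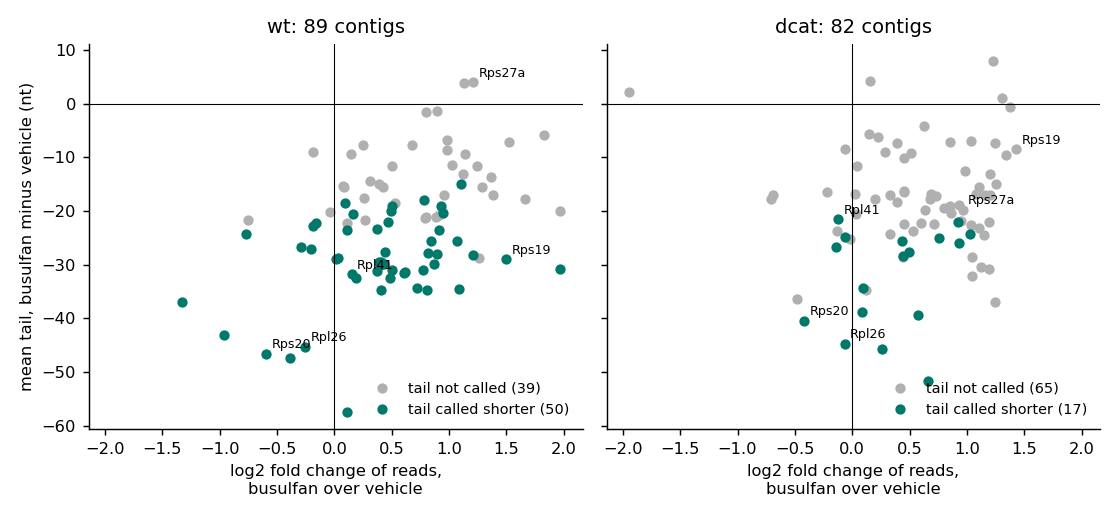
Difference in mean poly(A) tail (busulfan minus vehicle, nt) against the log2 fold change of reads for the member contigs with at least 10 reads in each library, in wt (89 contigs) and dcat (82); green marks tails called shorter by limma. In wt the contigs with the most negative tail differences lie to the left, among them Rps20 at -46.5 nt; in dcat the points show no such tilt.

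The stalk mRNAs all had shorter tails after busulfan in wt: Rplp0 went from 130 and 127 to 98.4 and 98.0 nt (-30.1 nt, limma adjusted p = 0.000111), Rplp2 from 117 and 130 to 89.7 and 88.5 nt (-34.5 nt, adjusted p = 0.00109), and Rplp1 from 106 and 104 to 89.7 and 91.0 nt (-14.9 nt, adjusted p = 0.0111). Rplp1 thus shortened by less than the median contig tested, and centring turns its difference to 8.32 nt. In dcat, Rplp0 alone of these passed, at -27.7 nt (adjusted p = 0.0107). Rps12 shortened in both genotypes, by 27.9 and 24.3 nt (limma adjusted p = 0.000736 and 0.02). Without wt busulfan replicate 1 the wt call of Rplp1 was lost (-14.2 nt), and without dcat busulfan replicate 1 the dcat calls of Rplp0 and Rps12 were (-24.1 and -21.7 nt). Rps27a, at 73.9 and 109 nt in wt vehicle and 94.9 and 96.2 nt in wt busulfan, did not pass (adjusted p = 0.782).

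Of Rpl10l and Rpl39l, which fell in counts, 1 could be tested in tails, and in dcat only. There Rpl39l had 113 and 105 nt without and 97.2 and 125 nt with busulfan (2.28 nt, limma adjusted p = 0.9). In wt its means were 104 and 110 nt without and 102 and 129 nt with busulfan, the last values from 3 and 19 reads. Rpl10l had 126 and 136 against 149 and 140 nt in wt, again from few busulfan reads, and was not tested.

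Between genotypes 0 member tails passed by limma. After busulfan 0 of 122 members passed (5 at an unadjusted p under 0.05), with a median difference of 2.37 nt, dcat minus wt, and a median SE of 7.59 nt, where 1.52% of all contigs tested were called (0.421% longer in dcat). Under vehicle 0 of 79 passed (2 unadjusted), with a median of 1.57 nt and 0.139% of all contigs called. In the interaction 0 of 77 passed (1 unadjusted), with 0.885% of all contigs called (0.295% upwards). Differences of the size of these medians could not be detected at this depth in single contigs.

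Other genes of the translation machinery were counted for comparison. Of 28 contigs of other mRNAs with a known TOP tract, 7 rose and 2 fell in wt (median -0.05), and 6 rose and 2 fell in dcat (median 0.35). Rack1, a scaffold on the small subunit, rose by 2.05 in wt and 2.08 in dcat on its main contig (edgeR adjusted p = 0.00032 and 0.000691). This Rack1 contig met the read filter of the deposited counts only through the busulfan groups. Pabpc1, the poly(A)-binding protein that germ cells make in quantity, fell by 2.41 and by 1.89 on the log2 scale (edgeR adjusted p = 1.16e-05 and 0.000387), while 1 contig of Tpt1 (ENSMUST00000110894) rose by 1.09 and 1.37 (adjusted p = 0.0039 and 0.00135). The other Tpt1 contigs did not pass in either genotype, at 0.58 and 0.48 in wt and 0.39 and 0.32 in dcat. Tails of these TOP mRNAs shortened in 12 of 18 contigs tested in wt (median -32.0 nt) and in 4 of 16 in dcat (median -28.2 nt).

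Mitochondrial ribosomal proteins, which build the separate ribosome of that organelle, were read on 19 contigs, of which 2 rose and 4 fell in wt (median 0.41), and 4 rose and 2 fell in dcat (median 0.07). Ribosome biogenesis factors were read on 7 contigs, of which 3 rose and 0 fell in wt and 3 rose and 1 fell in dcat. The 3 that rose were Ncl, Fbl and Nhp2, nucleolar proteins that process or modify ribosomal RNA. Their log2 fold changes were 2.26, 3.09 and 2.02 in wt, but their vehicle values rest on few reads. In wt vehicle Ncl had 2 and 2 reads, Fbl 2 and 1, and Nhp2 5 and 4. In dcat vehicle they had 0 and 1, 1 and 7, and 4 and 4. These contigs met the read filter of the deposited counts only through the busulfan groups, so a factor without such a rise could be missing. Npm1 did not pass on either of its contigs.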

How the data were processed

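RNA from whole testes was sequenced by Oxford Nanopore direct RNA sequencing. Per the authors' methods, reads were basecalled, demultiplexed and aligned with minimap2 (2.20-r1061 in the submitters' processing notes) to GENCODE transcripts of mouse GRCm38 (mm10), and tails were measured with Nanopolish. The deposited tables hold raw read counts per contig, with at least 10 reads in both replicates of 1 or more groups for every contig, and 1 tail length in nt per read. Tables of the authors' own differential tests were not used. The members and gene lists were chosen with earlier results of these data known. Replicates are separate mice, and each replicate number was 1 multiplexed library with 1 mouse of every group, so the numbers pair the samples. Their deviations correlated at -0.13 to 0.25 in counts and 0.01 to 0.06 in tails.

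Counts of all 2783 contigs were fitted with edgeR 4.0.16 (TMM, quasi-likelihood, 8 libraries in 4 groups), and mean tails per contig and library with limma 3.58.1 (trend, at least 10 reads in each library of the contrast), in R 4.3.3. All tests were 2-sided. Benjamini-Hochberg adjustment ran over every contig tested, with calls at an adjusted p under 0.05. An SE of a log2 fold change is its size over the root of edgeR's F, an approximation. Both tests were checked on simulated data. Named contigs are the most read contig of a fixed gene list, the 5 most and 5 least read members, and up to 5 members per direction and contrast with the largest change and no overlap between groups; members chosen otherwise are marked. DESeq2 1.42.0, other scalings, filters, tail summaries, the run as a block, sums per gene and leaving out each library were alternatives. Positions and exons come from GENCODE vM21 on GRCm38, in which all 140 members were found. A read is placed on 1 contig, so isoforms and close copies can exchange reads. Intervals cover counting error only. A count over ribosomal proteins with other names is not reported here.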

Additional observations from a re-analysis of the deposited data

How the results depend on the processing

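Busulfan against vehicle kept its direction for the median member under every alternative run except centring of the libraries for tails. The number of members called moved as follows. In counts, DESeq2 gave 35 in wt and 15 in dcat, against 60 and 56, and the 4 libraries of the contrast alone gave 32 in dcat. Leaving out 1 library at a time gave 34 to 89 in wt and 30 to 61 in dcat. Between genotypes after busulfan the libraries of the contrast alone gave 1 (Rpl39l), leaving out 1 library gave 0 to 2, and in the interaction it gave 0 to 2. In tails, where 50 and 17 were called, centred libraries gave 3 and 0, eBayes without trend 31 and 6, leaving out 1 library 32 to 48 and 5 to 23, and, in dcat, log2 lengths 35 and the replicate block 32. The block moved no other count of calls by over 1.5 times. Centring also turned the tail differences of Rplp1 in wt to 8.32 nt and of Rpl41 in dcat to 1.29 nt. With RLE scaling the median log2 fold change of all contigs was -0.03 in wt and -0.08 in dcat, against 0.09 and 0.14 with TMM, and the members lay 0.69 and 0.54 above it. As a share of reads that are not mitochondrial, the mean share of the members was 7.79% in wt vehicle and 13.6% with busulfan in wt, and also 13.6% with busulfan in dcat. Apart from the libraries named, the cause of these changes was not tested. With 2 libraries a group and 87 to 139 members at 10 reads or more in a library, small changes in single members lie below what this depth can show.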

Other observations

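The 6 contigs with pseudogene names, left out of the members, held 799 reads. In wt 3 of them rose after busulfan and 0 fell, and in dcat 2 rose and 1 fell (edgeR, adjusted p under 0.05). Rpl10-ps3 rose in both genotypes, by 2.01 and 2.28 on the log2 scale (adjusted p = 0.000748 and 0.00111), from 7 and 10 to 45 and 58 reads in wt and from 3 and 11 to 39 and 27 in dcat. Rpl10-ps3 met the read filter of the deposited counts only through the busulfan groups. Whether its reads belong to the X-linked Rpl10 was not tested.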
